A study of Caenorhabditis elegans with 8 samples.

Results

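The nucleosomes described here were the 404 with the highest positioning scores in the MNase-generated nucleosome core DNA of C. elegans oocytes. A dyad, the midpoint of the DNA wrapped on 1 nucleosome, was scored by the distinct 5′ ends that fell 71 to 75 nt outside it on the plus and minus strands, each position and strand counted once. The score can reach 10, at least 2 ends were asked for on each strand, and dyads were chosen from the highest score downwards at least the length of a core apart. Of 52835 dyads with a score of 4 or more, the 404 with a score of 7 or more were taken as members, which is 0.765%. The MNase ends therefore chose the members, and every MNase value below is a description with no test. The 7 endo-cleaved libraries had no part in the choice.

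In a nucleosome core, DNA is wrapped in nearly 2 turns around a histone octamer, and neighboring cores are joined by linker DNA. Micrococcal nuclease (MNase) digests linker DNA first and trims inward to the edge of the core, so that paired ends on opposite strands mark where a core lay. A nucleosome is strongly positioned when the core occupies the same place in many copies of the genome. The score used here counts distinct end positions, so it does not measure how many copies share a place. Endonucleases that cut core DNA without releasing it from the histones can do so where the minor groove faces outward, which recurs about once per helical turn.

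All 8 libraries came from oocytes purified from fer-1(b232) worms grown at the restrictive temperature, a mutant whose oocytes become activated without being fertilized. In 7 of them the DNA had been cut by a nuclease of the oocytes themselves (endo-cleaved DNA, with no nuclease added), as 4 paired-end libraries (130 to 430 bp, 80 to 230 bp, 50 to 130 bp and 20 to 80 bp) and 3 single-end libraries (140 to 240 bp, 90 to 140 bp and 40 to 90 bp). In 1 the chromatin had been digested with MNase and DNA of about 150 bp was taken. The authors report that most DNA of such oocytes was already fragmented, and describe the MNase-generated fragments as from the longer chromatin. Whether the MNase library also holds cuts of the oocyte nuclease was not tested. Each condition was 1 library, so no difference has a replicate check, and the 95% intervals below (exact Poisson for counts, exact Clopper-Pearson for shares) cover counting error only. PCR copies cannot be told from separate molecules, and each position or fragment was counted once. The lists hold positions of DNA and no expression values, so the oocyte label could not be checked against marker genes. Depth ran from 5930844 to 14665888 distinct fragments in the paired-end libraries and from 13040032 to 23077815 distinct positions in the single-end endo-cleaved libraries. The MNase library had 6852300.

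Of the members, 362 had a score of 7, 40 had a score of 8 and 2 had a score of 9, and no dyad reached 10. Just outside the threshold lay 2995 dyads of score 6, followed by 13955 of score 5 and 35481 of score 4. The median number of MNase tags in the end windows, repeated tags included, was 10 at score 7 (lowest 7, highest 60) and 8 at score 6 (lowest 6, highest 28). Plus-strand ends outnumbered minus-strand ends at 185 members, minus-strand ends outnumbered plus-strand ends at 198, and the strands were even at 21. MNase ends were also more frequent around the members. The median member had 117 distinct MNase ends within 500 nt on either side, against 98 at dyads of score 4 to 6 and a mean of 68.4 over all positions. Endo-cleaved fragments of the 130 to 430 bp library, counted in the same window, had a median of 171 at members and 161 at dyads of score 4 to 6, with a mean of 135 over all positions. A high density of mapped ends raises the score by itself, and its part in the choice of members was not tested.

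In all, 12 members lay in stretches with over 3 times the mean number of 130 to 430 bp fragments, and results that rest on them are given with and without them (12 of 404, 392 remaining). This split was made after the values were seen. Of these, 5 lay within 3 kb near the right end of chromosome III, at dyads 13778193, 13780245, 13780392, 13780645 and 13780864, of which the last 4 had 298 to 438 MNase ends and 949 to 1113 fragments in 1 kb. Another 2 lay on chromosome IV at 10950377 and 10950564, and 1 at 2824526. The member on X at 109423 was of another kind: it had 25 MNase ends in 1 kb, the lowest of all members, but 672 fragments of the 130 to 430 bp library, none of which was of core length and centered on the dyad. The member on V at 5285218 likewise had 422 fragments in 1 kb, 89 MNase ends and no centered core-length fragment, and 1 more on V (15432364) and 1 on III (931487) completed the set.

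Members were found on every chromosome. Their density was 4.03 per Mb over all chromosomes (95% interval 3.65 to 4.44), lowest on III with 2.76 per Mb (38 members) and highest on V with 4.88 per Mb (102 members). Chromosome I had 56 members, II had 60, IV had 67 and X had 81. Each chromosome was then divided into 3 equal parts (left, middle and right), since the arms of C. elegans autosomes differ from the centers in recombination, repeats and chromatin marks. On the 5 autosomes the outer parts held 232 members (4.22 per Mb) and the middle parts 91 (3.31 per Mb). The ratio was 1.27 with a 95% interval of 0.996 to 1.64, so the difference was within counting error. The density was higher in both outer parts than in the middle part on I, II, III and V. On III the right part had 13 members (2.83 per Mb) and the middle part 10 (2.18 per Mb). Of these 13, 5 were the members of high fragment counts near the right end. Without them the right part of III was below the middle part. On IV it was 3.94, 4.12 and 3.43 per Mb from left to right.

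The same ratio was taken for the ends and for the lower-scored dyads. Distinct MNase ends were fewer in the outer parts than in the middle parts of the autosomes, with a ratio of 0.922, and all dyads of score 4 or more had a ratio of 1.02 (1.00 to 1.05). For the far more numerous dyads of score 6 the ratio was 1.22 (1.12 to 1.34). As a share of dyads of score 4 or more, members were 0.822% in the outer parts of the autosomes (0.720 to 0.934%) and 0.660% in the middle parts (0.532 to 0.810%). On X the density ratio of members was 1.06 (0.652 to 1.76), and the left part had the most, with 32 members, against 26 in the middle and 23 in the right part.

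**Figure D1:**
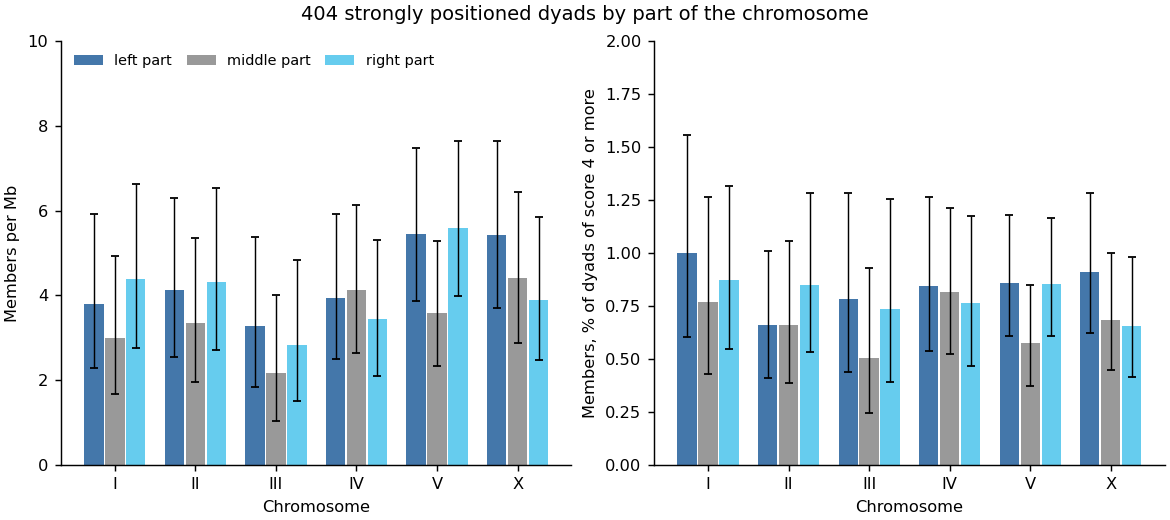
Members in each part of each chromosome, as members per Mb (left panel) and as a percentage of dyads of score 4 or more (right panel). Bars are single counts and lines their 95% intervals (exact Poisson on the left, exact binomial on the right), which overlap between the parts of every chromosome. The tallest bars stand in the outer parts of V, with 5.45 and 5.59 members per Mb, against 3.59 in its middle part.

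The second question was whether the neighbors of the members were in register with them. Each MNase end was moved 73 nt inward to estimate the center of its core, and the density of these centers was averaged around the members and smoothed (Gaussian, SD of 15 nt). Windows were set in advance around the first 4 multiples of 180 nt, and the highest smoothed value in each was taken as a neighbor maximum. Such windows return 4 maxima a side on any profile, so their number is no result. These maxima lay 180, 357, 555 and 730 nt to the left and 179, 355, 546 and 725 nt to the right. The heights of the first neighbors were 2.14 and 2.06 times the mean over all positions, those of the second 1.73 and 1.71 times, and those of the fourth 1.60 and 1.52 times. The density between the dyad and the first neighbor went down to 1.50 times the mean on the left and 1.48 times on the right. A straight line through the 4 maxima gave a repeat of 183.9 nt, the mean of 184.8 nt on the left and 182.9 nt on the right. The windows limit how far this repeat can lie from 180 nt. Dyads of score 6 gave 180.8 nt, those of score 5 gave 183.1 nt and those of score 4 gave 182.9 nt, with first neighbors at 179 nt on both sides for score 6 and heights of 1.89 and 1.92.

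The endo-cleaved libraries, which had no part in the choice but came from the same kind of oocytes, were read in the same preset windows. Their first neighbors also stood above the density between them and the dyad. Midpoints of core-length fragments (140 nt and up to 15 nt more) of the 130 to 430 bp library had maxima at 179, 354, 551 and 758 nt to the left of the members and at 178, 372, 546 and 733 nt to the right. The first neighbors reached 1.68 and 1.65 times the mean, with minima of 1.30 and 1.27 between them and the dyad, and the dyad itself reached 2.36 at this smoothing. In the 80 to 230 bp library the first neighbors lay at 172 and 180 nt, with heights of 1.72 and 1.65. Over the 392 members outside stretches of high fragment counts the first neighbors had 1.61 and 1.52 in this library. In the 130 to 430 bp library they had 1.61 and 1.55. Dyads of score 6 had 1.51 and 1.51 in the 80 to 230 bp library. They had 1.48 and 1.50 in the 130 to 430 bp library. On the right in the 80 to 230 bp library the 392 members were thus close to dyads of score 6. With all members the repeat was 188.7 nt in the 130 to 430 bp library (193.4 nt on the left, 183.9 nt on the right). It was 187.3 nt in the 80 to 230 bp library (186.0 and 188.6 nt). The left and right slopes of the 130 to 430 bp library differed by more than the repeats of the 3 libraries did, so these repeats were not distinguishable. For dyads of score 6, which are more numerous, both endo-cleaved libraries gave 184.6 nt.

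**Figure D2:**
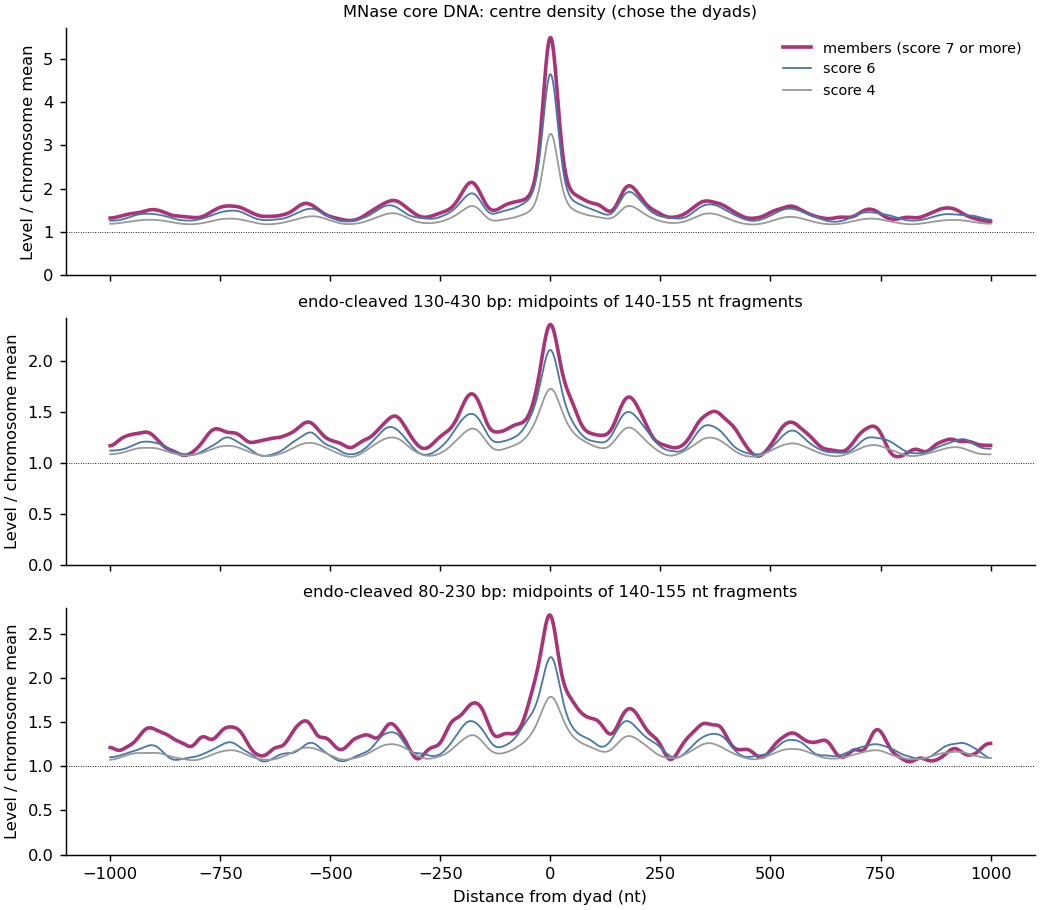
Mean density around the members, dyads of score 6 and dyads of score 4, relative to the mean over all positions (dotted line at 1), against the distance from the dyad in nt. The upper panel shows centers of MNase-generated cores, and the lower panels show midpoints of core-length fragments of the 130 to 430 and 80 to 230 bp libraries. Maxima recur near 180 nt on both sides in all panels. Members stand highest at the dyad and at the first neighbors, and also at the minima between them.

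Few members had a neighbor that was itself positioned strongly enough to be called. Another dyad of score 4 or more lay 160 to 200 nt away on at least 1 side at 74 members, or 18.3% (14.7 to 22.4%), where the same share over all dyads of score 4 or more was 13.3%. It was 18.3% at score 6 (16.9 to 19.7%), 14.6% at score 5 and 12.3% at score 4, so members and dyads of score 6 did not differ. Such a neighbor on both sides was found at 5 members, or 1.24% (0.403 to 2.86%), where the share over all dyads was 0.672% and that of score 6 was 1.07%, so no difference was detectable. The commonest distance to the next dyad, counted in steps of 10 nt, was 167 to 176 nt, in 26 of the members' sides (3.22%), followed by 177 to 186 nt with 22 (2.73%). The order was the same at dyads of score 4 to 6, with 1.91% and 1.82% of the sides. Members themselves rarely lay near each other: 10 pairs of successive members were within 1000 nt, and 2 of these were at most 210 nt apart. These were the dyads at 13780245 and 13780392 on III, at the smallest distance the rule allows, and those at 10950377 and 10950564 on IV, 187 nt apart, all 4 of them in the stretches of high fragment counts.

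Fragments of the 4 paired-end libraries were then placed around the members by size and midpoint. Enrichment was the number of distinct fragments of a size class with a midpoint within 10 nt of a member, over the number for the mean density of that class across the 6 chromosomes. Core-length fragments were centered on the members in the 130 to 430 and 80 to 230 bp libraries, of which they were 31.0% and 7.98%. The 2 shorter libraries together had 7 such fragments at members. In the 130 to 430 bp library 946 such fragments were centered on the members, an enrichment of 2.72 (2.55 to 2.90), against 1.97 (1.96 to 1.98) at dyads of score 4 to 6. By chromosome the members' value ran from 2.40 on X to 3.40 on III. Without the 12 members of high fragment counts it was 2.58 (2.41 to 2.76), and by chromosome 2.34 to 2.74. In the 80 to 230 bp library there were 316 such fragments, an enrichment of 3.27 (2.92 to 3.65), against 2.04 (2.02 to 2.07) at dyads of score 4 to 6, and 3.06 without the 12 members. The density of these fragments 300 to 500 nt from the members was itself 1.29 times the mean in both libraries. Relative to these flanks the members' enrichments were 2.11 and 2.53. Dyads of score 4 to 6 had lower flanks, 1.16 and 1.17 times the mean, so the members differed from them by less relative to flanks.

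Fragments that span a core with some or all of its linker were also centered on the members. In the 130 to 430 bp library the enrichment was 2.82 (2.59 to 3.06) for sizes above core length and under 170 nt, against 1.98 at dyads of score 4 to 6. For fragments of 170 nt and up to 35 nt more it was 2.23 (2.04 to 2.42), against 1.77 (1.76 to 1.79). This class, called linker-length below, has the length of a core plus its linker, not of a linker alone. The same classes of the 80 to 230 bp library, where they are a tail of the size range (4.72% and 2.97% of the fragments), gave 3.03 (2.59 to 3.52) and 3.31 (2.75 to 3.97) at the members, against 2.10 and 1.87 at dyads of score 4 to 6. Without the 12 members of high fragment counts they gave 2.63 (2.22 to 3.10) and 2.81 (2.28 to 3.43). In the 130 to 430 bp library they then gave 2.71 and 2.08. Fragments above linker length and under 290 nt were less sharply placed. Their enrichment was 1.58 (1.37 to 1.82) at the 392 members and 1.76 with the 12 others, against 1.47 (1.45 to 1.49) at dyads of score 4 to 6, so that no difference was detectable without the 12. It was still 1.40 at 80 to 100 nt from the 392 dyads.

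Dinucleosome-length fragments of 290 to 430 nt were where a single member carried the value. Over all 404 members the enrichment in the 130 to 430 bp library was 3.86 (3.11 to 4.73), from 92 fragments, of which 52 were at the member on X at 109423 and at most 2 at any other. Without that member it was 1.64 (1.17 to 2.23), from 40 fragments. Without the 12 members of high fragment counts it was 1.60 (1.13 to 2.20), from 37 fragments. The maximum then lay 77 nt from the dyad at 1.90 times the mean, and at dyads of score 4 to 6 it lay 78 nt away at 1.52 times the mean, against 1.31 at the dyad. A midpoint near this distance is that of a fragment which holds the dyad and 1 neighbor. The 80 to 230 bp library also listed 28 fragments above linker length and under 290 nt centered on members, all at this member on X, where 0.431 were expected for all of them, and none at the 392 members.

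Shorter fragments were arranged differently in the libraries selected for them. At over 110 and under 140 nt, just short of a core, the enrichment within 10 nt of the dyad was 2.02 (1.86 to 2.19) in the 80 to 230 bp library, against 1.57 at dyads of score 4 to 6. The maximum of this class was not at the dyad but 18 nt to either side of it, with 2.22 times the mean. In the 50 to 130 bp library the same class had its maximum at 15 nt with 2.27. In the 130 to 430 bp library the maximum of this class was at the dyad. The enrichment there was 2.39 (2.16 to 2.64), against 1.74 at dyads of score 4 to 6. The class did not hold the same sizes in each library. Its fragments centered on dyads of score 4 to 6 were mostly close to core length in the 130 to 430 bp library. In the 80 to 230 bp library they were mostly shorter. The part of size in the place of the maximum was not tested. At 81 to 110 nt the maximum lay 15 nt from the dyad in the 80 to 230 bp library (1.64 times the mean) and 18 nt from it in the 50 to 130 bp library (1.82 times). Core-length fragments had their maximum at the dyad itself in the 130 to 430 and 80 to 230 bp libraries.

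Fragments of 46 to 80 nt, no longer than about one side of a core, were most frequent at the dyad, but by less. Their enrichment was 1.67 (1.54 to 1.80) in the 20 to 80 bp library, against 1.34 (1.33 to 1.35) at dyads of score 4 to 6, and 1.55 (1.44 to 1.68) in the 50 to 130 bp library, against 1.33 (1.32 to 1.34). At 80 to 100 nt from the members, in the linker, the density was 0.960 and 0.897 times the mean. The shortest class, 25 to 45 nt in the 20 to 80 bp library, was less frequent at the dyad than toward the edges of the core. Over the 392 members its enrichment was 1.33 (1.10 to 1.60) within 10 nt of the dyad, and its maximum was 57 nt away with 1.87 times the mean. At dyads of score 4 to 6 the maximum lay at the same distance with 1.52. Over all 404 members the maximum was 2.26 at 60 nt.

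**Figure D3:**
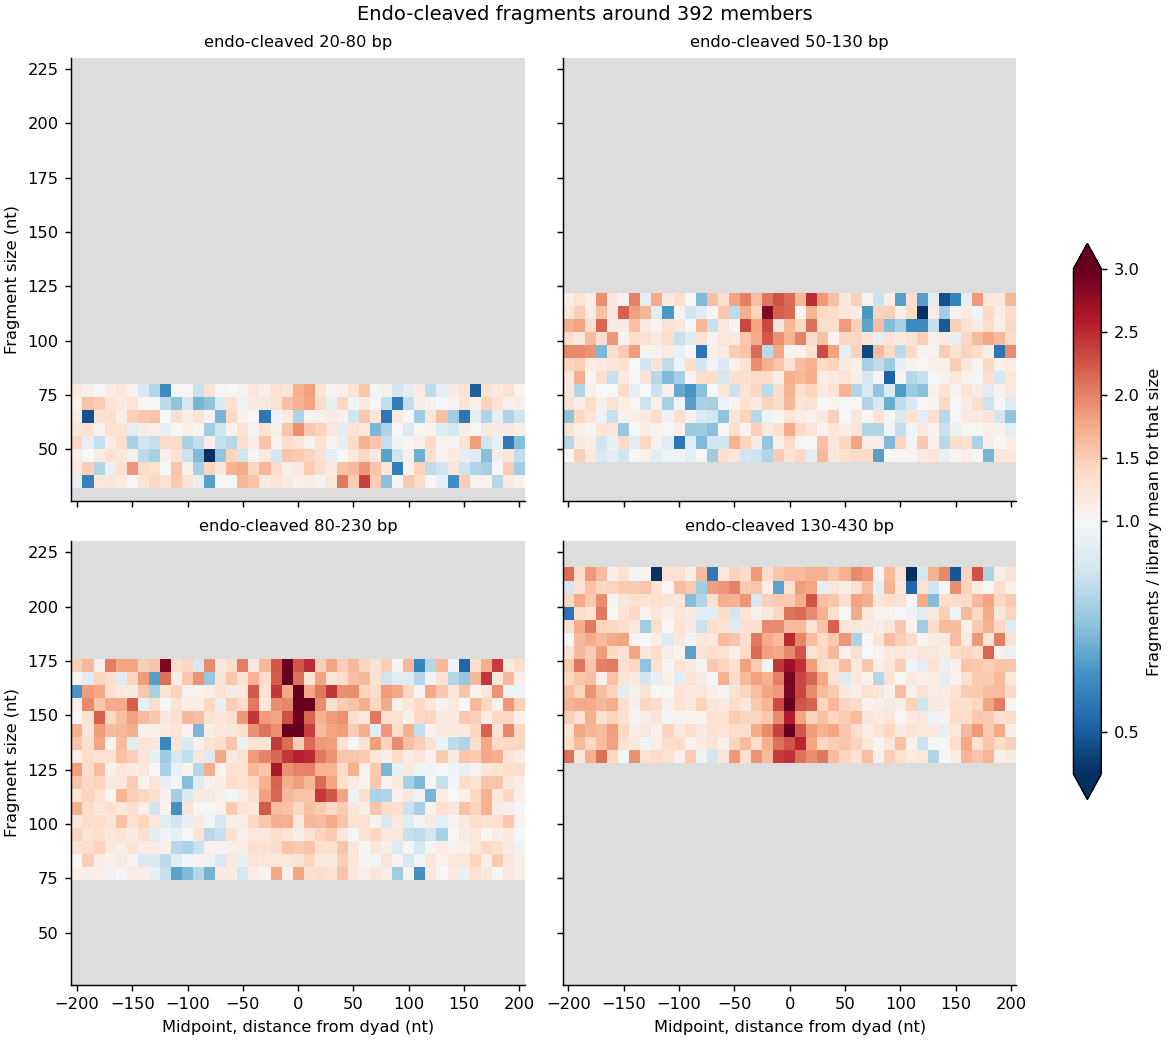
Fragments of the 4 paired-end libraries around the 392 members outside stretches of high fragment counts, by fragment size (nt) and by distance of the midpoint from the dyad (nt). Color gives the number of fragments over the library's mean for that size, from 0.4 (blue) through 1 (white) to 3 (red), and grey marks sizes with fewer than 150000 fragments in the library. Sizes of 140 nt and more form a column at the dyad, sizes from 81 to under 140 nt spread to both sides of it in the 80 to 230 and 50 to 130 bp libraries, and the shortest sizes are frequent near 60 nt.

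Single ends resolved these patterns further. For each library, 5′ ends of both strands were superposed so that the fragment extends toward and past the dyad, and levels were averaged over 3 nt. In the MNase library the maximum lay 74 nt before the dyad, as the rule requires, with 20.8 times the mean over the 392 members. In 3 endo-cleaved libraries the maximum lay farther out. It was 80 nt before the dyad in the 130 to 430 bp library (2.60 times the mean), in the single-end 140 to 240 bp library (2.60 times) and in the single-end 90 to 140 bp library (1.95 times). At 73 nt, where the MNase ends lay, the levels were 2.38, 1.86 and 1.59 times the mean in these libraries. A further crest stood 71 nt before the dyad in all 3, with 2.57, 1.97 and 1.89 times the mean. Dyads of score 4 to 6 had their maximum in the same place in these libraries, 80 nt before the dyad, with 1.97, 1.82 and 1.67 times the mean.

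In the libraries of short fragments the maximum lay inside the core. It was 28 nt before the dyad in the 20 to 80 bp library (2.06 times the mean), 29 nt in the 50 to 130 bp library (2.00 times) and 30 nt in the single-end 40 to 90 bp library (1.61 times), and 29 nt in all 3 at dyads of score 4 to 6 (1.59, 1.63 and 1.44 times). The 80 to 230 bp library had crests of nearly equal height at 39 nt (2.27 times the mean), at 80 nt (2.21 times) and at 60 nt (2.08 times), and which was highest depended on the 12 members, since over all 404 it was the crest at 80 nt with 2.51. Between 95 nt before and 65 nt past the dyad, 15 or 16 crests could be counted in each endo-cleaved library, with a median spacing of 10 nt in 6 of the 7 libraries and of 9 nt in the single-end 140 to 240 bp library. The MNase library had 12 crests in the same stretch, with a median spacing of 10 nt and a mean of 11.7 nt. This median was not stable. Over all 404 members it was 12 nt (11 crests), and at dyads of score 4 to 6 it was 11 nt (10 crests). At those dyads the median was 10 nt in each endo-cleaved library. Apart from the one the rule fixed, the highest MNase crest inside the core had 2.08 times the mean (at 45 nt, Gaussian with an SD of 2 nt). At this smoothing the highest crest inside the core had 2.35 in the 130 to 430 bp library and 1.98 in the 80 to 230 bp library. It had 1.82 in the 20 to 80 bp library and 1.74 in the 50 to 130 bp library. The single-end libraries had 1.92 (140 to 240 bp), 1.74 (90 to 140 bp) and 1.44 (40 to 90 bp). In the 130 to 430, 140 to 240 and 90 to 140 bp libraries this crest stood at 71 nt, at the core edge left out for MNase. Their crests at 60 nt had 2.04, 1.59 and 1.65, so the first was close to the 2.08 of MNase. The lowest level in the short-fragment libraries stood 68 nt past the dyad, with 0.661 times the mean in the 20 to 80 bp library, 0.660 in the 50 to 130 bp library and 0.569 in the 40 to 90 bp library. Both nucleases prefer some sequences over others, and their part in the place of these crests was not tested.

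**Figure D4:**
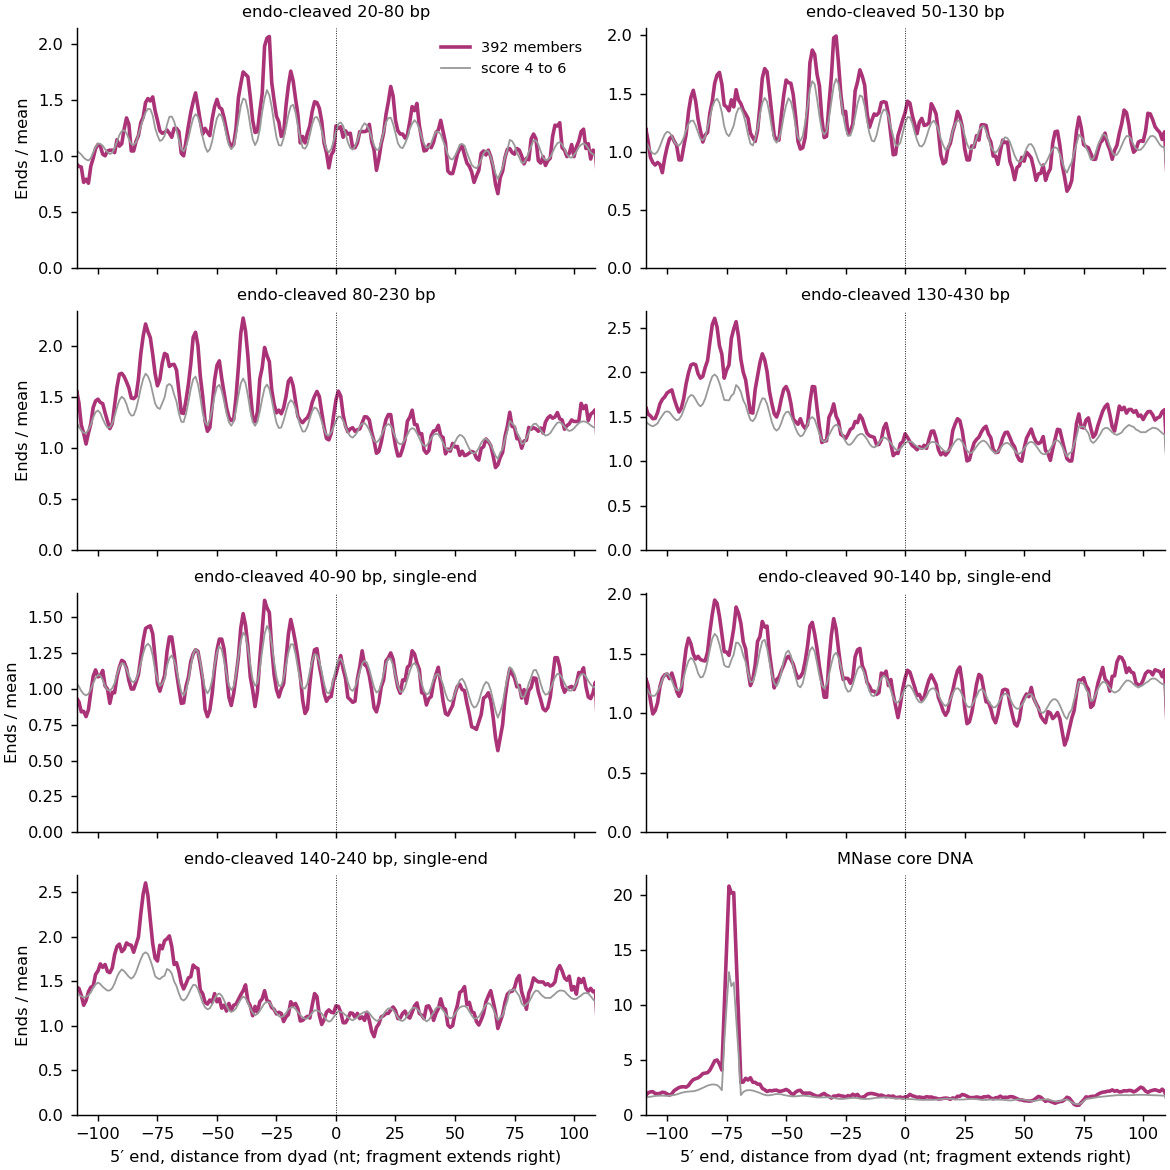
Level of 5′ ends (3-nt mean, over the mean of all positions) against the distance from the dyad in nt, with both strands superposed so that each fragment extends to the right, for the 7 endo-cleaved libraries and the MNase library. The 392 members are drawn beside dyads of score 4 to 6. Crests recur about every 10 nt in the endo-cleaved libraries, highest at the members 80 nt before the dyad in the 130 to 430, 140 to 240 and 90 to 140 bp libraries, at 39 nt in the 80 to 230 bp library and from 28 to 30 nt in the 3 others, whereas the MNase library is dominated by the peak at 74 nt that the rule itself fixed.

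Since paired-end reads give both ends of 1 molecule, the crests could be followed in pairs. Among fragments of the 130 to 430 bp library with both ends 57 to 83 nt from a member's dyad (1426 fragments, 392 members), 300 or 21.04% (18.9 to 23.2%) joined an end 77 to 83 nt away on one side with an end 68 to 74 nt away on the other. A pair of unlike distances can arise in 2 arrangements, left and right exchanged, and a pair of like distances in 1. Per arrangement this pair had 150 fragments, fewer than the 178 with ends 68 to 74 nt away on both sides. Ends of 77 to 83 nt on one side and 57 to 63 nt on the other made up 17.8% (15.9 to 19.9%), 68 to 74 nt on both sides 12.5% (10.8 to 14.3%), and 77 to 83 nt on both sides 8.27% (6.90 to 9.83%). At dyads of score 4 to 6 the same 4 shares were 19.1%, 18.3%, 10.2% and 7.60%. The share with 68 to 74 nt on both sides was higher at the members, 12.5% against 10.2% (10.1 to 10.4%), by more than counting error. The other 3 were within it. In the 80 to 230 bp library (612 fragments) the share with 68 to 74 nt on both sides was 9.15% at the members (6.99 to 11.7%), against 7.69% at dyads of score 4 to 6, a difference within counting error. Fragments of the 130 to 430 bp library centered within 3 nt of the dyad had their highest size maximum at 144 nt, both at the 392 members and at dyads of score 4 to 6. Lower maxima followed at 159, 163, 175 and 181 nt at the members, and at 151, 159 and 177 nt at dyads of score 4 to 6.

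The endo-cleaved values were higher at higher MNase scores. From score 4 through 5, 6 and 7 to 8, the enrichment of core-length fragments in the 130 to 430 bp library was 1.86, 2.15, 2.39, 2.68 and 3.08, and in the 80 to 230 bp library 1.93, 2.22, 2.55, 3.14 and 4.39. Linker-length fragments gave 1.70, 1.90, 2.04, 2.14 and 2.99. Fragments of 46 to 80 nt gave 1.31, 1.37, 1.47, 1.63 and 1.95 in the 20 to 80 bp library and 1.31, 1.35, 1.41, 1.54 and 1.76 in the 50 to 130 bp library. Between score 7 and score 6 the intervals were apart for core-length fragments in both libraries (2.50 to 2.87 against 2.33 to 2.45, and 2.78 to 3.53 against 2.44 to 2.67). They overlapped for linker-length fragments and for those of 46 to 80 nt. The separation rested on the stretches of high fragment counts, which hold 11 members of score 7 and 9 dyads of score 6. Without these the core-length values at score 7 and score 6 were 2.53 (2.36 to 2.72) and 2.38 (2.32 to 2.44) in the 130 to 430 bp library and 2.94 (2.58 to 3.33) and 2.54 (2.42 to 2.66) in the 80 to 230 bp library, so that the intervals overlapped in both. Those of linker-length fragments were then 2.01 and 2.03. The 40 members of score 8 were above those of score 7 in all 5 measures, with intervals that overlapped in each. The 2 members of score 9 had 4 core-length fragments of the 130 to 430 bp library and 2 of the 80 to 230 bp library between them.

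**Figure D5:**
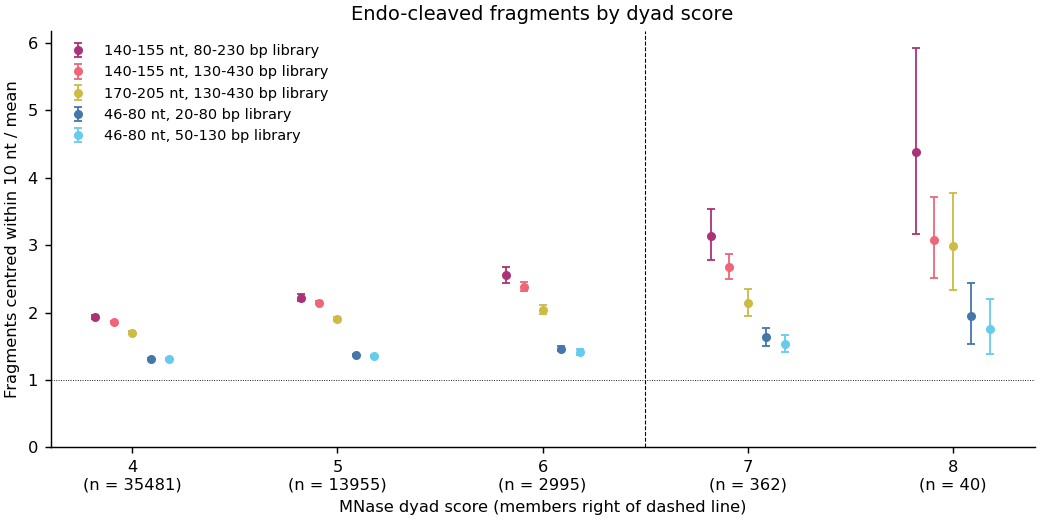
Enrichment of fragments centered within 10 nt of the dyad against the MNase dyad score, for 5 combinations of size class and paired-end library. Points are single values over all dyads of a score and lines their exact Poisson 95% intervals. Every measure is higher at score 7 than at score 4, and that of core-length fragments in the 80 to 230 bp library has the widest range, 1.93 at score 4 and 4.39 at score 8.

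Member by member the depth was small. At the mean density, 0.862 core-length fragments of the 130 to 430 bp library were expected within 10 nt of a dyad. At least 1 was found at 335 members, or 82.9% (78.9 to 86.5%), where the share over all dyads of score 4 or more was 77.0% and that over all positions of the 6 chromosomes 51.8%. Dyads of score 6 had 83.1%, so by this count the members did not differ from them. The median member had 2 such fragments, 49 members had 5 or more, and the highest number was 20. In the shallower class of the 80 to 230 bp library at least 1 was found at 195 members, or 48.3% (43.3 to 53.3%), where the share over all dyads of score 4 or more was 37.1%. At score 6 it was 43.9%, inside the members' interval. Both libraries had such a fragment at 170 members, or 42.1% (37.2 to 47.1%), where the share over all dyads of score 4 or more was 30.4% and that of score 6 was 38.1%. Neither had one at 44 members, or 10.9% (8.03 to 14.3%), against 16.3% of all dyads and 11.1% at score 6. The 130 to 430 bp library alone had one at 165 members (40.8%, against 46.6% of all dyads) and the 80 to 230 bp library alone at 25 (6.19%, against 6.65%). Members and dyads of score 6 were within counting error in both the first and the second of these shares. A count of 0 at 1 member does not show at this depth that its core was cut or placed otherwise.

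The other classes were read in the same way. Linker-length fragments were centered on 267 members, or 66.1%, where the share of all dyads was 62.1%. Fragments of 46 to 80 nt were centered on 307 members in each of the 20 to 80 and 50 to 130 bp libraries, or 76.0%, where the shares of all dyads were 69.2% and 72.8%. The first interval for members was 61.2 to 70.7% and the second 71.5 to 80.1%, so that the shares of linker-length fragments and of short fragments in the 50 to 130 bp library were near the background.

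The highest-scored member of each chromosome is described next. Positions are those of the lists, counted from 1, in a genome build not given in the sources used here, and each interval reaches 73 nt to either side of the dyad. The member chrIII:10047255-10047401 had a score of 9, from 5 plus-strand and 4 minus-strand ends, with 3 core-length fragments of the 130 to 430 bp library and 1 of the 80 to 230 bp library. It also had 5 short fragments of 46 to 80 nt in the 20 to 80 bp library. The other member of score 9, chrV:12509971-12510117, had 4 plus-strand and 5 minus-strand ends and 21 MNase tags, but 1 core-length fragment in each of these libraries and no short fragment in either short library.

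The members chosen for I, II, IV and X had a score of 8. The one on I, chrI:1913636-1913782, had 19 MNase tags and 6 core-length fragments of the 130 to 430 bp library, and the one on II, chrII:3726253-3726399, had 11 tags, 1 such fragment and a called neighbor 162 nt to its left. The one on IV, chrIV:2824091-2824237, had 31 tags, 6 core-length and 5 linker-length fragments. The one on X, chrX:9210-9356, had 22 tags and 4 core-length fragments.

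The members with the most core-length fragments of the 130 to 430 bp library were mostly in stretches where all counts were high. On III, chrIII:13780319-13780465 had 20 and chrIII:13780572-13780718 had 9, within stretches of 1113 and 1024 fragments per kb. On IV, chrIV:10950304-10950450 and chrIV:10950491-10950637, the pair 187 nt apart, had 11 each, within 475 and 499 fragments per kb. The fifth, chrV:13119343-13119489, had 8 core-length fragments with 235 fragments and 140 MNase ends per kb, and so lay outside such a stretch. All 5 had a score of 7.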

How the data were processed

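The deposited lists hold, for 8 libraries, mapped tags or fragments with whole-number counts of tags, not normalized by the authors. A score that the authors added to the single-end lists, for the color of a browser track, was left aside. The authors blunted DNA ends, ligated linkers, selected sizes on gels and amplified. Per the labels reads were mapped with Bowtie 0.12.7, and the genome build is not given in the sources used here. The single-end lists draw each tag to a fixed length, so the 5′ end of its 25 mapped nt was used. All lists hold the 6 nuclear chromosomes only, with 7892011 MNase tags and 6097218 to 32660817 tags in the other libraries.

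Dyads were called by the rule described in the text, with Python 3.11.15, NumPy 2.4.6, SciPy and Numba, tested on simulated data. Chromosome parts are equal divisions of the highest listed position. The members were chosen with earlier results of these data known, and so were the size classes. Members named with coordinates were the highest-scored of each chromosome (ties by MNase tags, then leftmost) and the 5 with the most core-length fragments of the 130 to 430 bp library. Size classes with fewer than 100 fragments within 100 nt of a member were left out. With 1 library a condition no test was run. Alternatives were score thresholds of 6 and 8, exclusion of dense windows, a spacing of 120 nt, exclusion of chromosome X, all tags, narrower midpoint windows and flanks as background. Sequence features and gene context were not analysed here, since no genome of the lists' build was used.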

Additional observations from a re-analysis of the deposited data

How the results depend on the processing

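No paired analysis was possible because each condition has 1 library. Of 77 alternative values, 54 fell inside the 95% interval given for the main value (for the repeat, inside the difference between its left and right slopes, and for the count of members, within a factor of 1.5), and all 45 alternative enrichments stayed above 1. A threshold of 6 gave 3399 members and one of 8 gave 42. With score 6 or more the enrichments were 2.43 and 2.64 for core-length fragments in the 130 to 430 and 80 to 230 bp libraries and 1.49 and 1.43 for short fragments in the 20 to 80 and 50 to 130 bp libraries, and the repeat was 181.3 nt. With score 8 or more they were 3.04, 4.38, 1.98 and 1.72, that of linker-length fragments was 2.97, the share with a core-length fragment was 90.5%, the share with a called neighbor was 33.3%, and the outer-to-middle ratio was 0.917 (0.434 to 2.03), on the other side of 1. Midpoints within 5 nt gave 3.02 and 3.72 for core-length fragments and a share of 65.1%. Flanks as background gave 2.11 and 2.53 for core-length and 1.75 for linker-length fragments. Without chromosome X the repeat was 186.5 nt, and neighbors at 150 to 210 nt gave a share of 23.02%. Why these moved was not tested, except that a smaller window and a wider distance change what is counted. Leaving out the 12 members of high fragment counts, chosen after seeing the data, gave 1.60 for 290 to 430 nt fragments, against 3.86 with them, and left the repeat, both shares, the place ratio and the 5 other enrichments inside their intervals. It also ended the separation of the core-length intervals at score 7 and score 6. With 42 members of score 8 or more and a median of 2 core-length fragments a member, single members are not distinguishable at this depth.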
